A study of Mus musculus with 36 samples.

Results

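Bladder tumours raised in mice with the carcinogen N-butyl-N-(4-hydroxybutyl)nitrosamine (BBN) differed widely in how much RNA they held for the fibrillar collagens and decorin, and the 5 tumours with the most of it also carried far more RNA for elastic fibres, small proteoglycans, lysyl oxidases and smooth muscle proteins than the 5 with the least. All 11 BBN primary tumours of the series, out of 36 samples, were ranked by the mean of log2(value + 1) over Col1a1, Col1a2, Col3a1 and Dcn, called the matrix score here. Thus the groups were chosen by measured values: BBN964, BBN969, BBN975, BBN972 and BBN965 were the 5 highest (matrix-rich), BBN962, BBN963, BBN968, BBN976 and BBN974 the 5 lowest (matrix-poor), and BBN973 in the middle was left out. Values are given below in those 2 orders, from the highest score to the lowest. The 4 ranking genes are not results, and the contrast between the groups is a description with no p-value, since every gene of the same tumours shares the libraries that were ranked.

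RNA sequencing had been run on primary bladder tumours, on tumours grown from cell lines and on the lines in culture. The BBN mice have the genotype label Ctrl and BBN as the treatment. The 9 UPPL primary tumours came from untreated mice whose alleles include p53f/f, the driver Upk3a-CreERT2 and a Rosa26LSL-Luc reporter, in which a tamoxifen-inducible Cre driven by the promoter of Upk3a, a gene of the luminal urothelium, deletes floxed alleles. The other tumours used were 4 grown from the UPPL1541 line, 2 from the BBN963 line (genotype Ctrl) and 4 from MB49, a mouse bladder carcinoma line (genotype Ctrl), all untreated. The labels give no age, sex, host strain or implantation site, and do not say that tumours of a group came from separate mice, so a spread between them may in part be technical. In these bulk samples fewer cells of a type and less RNA per cell cannot be told apart.

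The stroma of a solid tumour holds fibroblasts, vessels with their pericytes, and immune cells, set in an extracellular matrix of collagen fibrils, elastic fibres and proteoglycans. Fibroblasts secrete most of the fibrillar collagen, which is trimmed by proteases, cross-linked by lysyl oxidases and bound by small leucine-rich proteoglycans such as decorin. The bladder also has a thick muscular wall, the detrusor, whose smooth muscle cells share many matrix and contractile genes with activated fibroblasts. Invasive bladder tumours grow into that wall.

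The matrix score was 13.47, 13.18, 12.71, 12.38 and 11.51 in the matrix-rich tumours, 10.54 in BBN973, and 9.67, 9.10, 9.02, 7.60 and 4.98 in the matrix-poor ones. At the edges of the groups BBN965 stood 0.97 above the middle tumour and BBN962 0.88 below it. Dcn, the gene of decorin, spread the most among the 4, from a value of 1.81 in BBN974 to 6780 in BBN975. The same 5 and 5 tumours were picked when any 1 of the 4 genes was left out of the score.

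**Figure D1:**
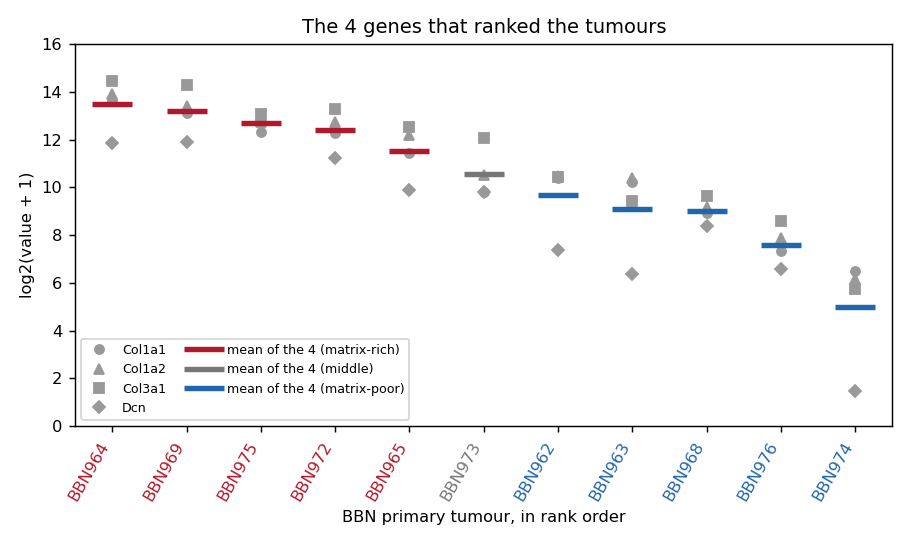
log2(value + 1) of the 4 ranking genes (grey symbols) and their mean, the matrix score (coloured bars), in each of the 11 BBN primary tumours in rank order. The score falls from 13.47 in BBN964 to 4.98 in BBN974 in steps, with no wide gap between the groups.

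Depth as recovered from the deposited values was 9.29 to 17.9 M reads a library, and 6713 to 8572 genes were at 0 in the matrix-rich tumours against 7944 to 8801 in the matrix-poor ones. The commonest low value was worth 3 to 5 reads in 7 libraries, 8 in BBN965 and BBN968, 9 in BBN973 and 15 in BBN962. BBN975 stood apart in the genes of smooth muscle, nerve sheath and plasma cells, and BBN974 in those of endothelium, as given below. Basal keratins of the urothelium were present in all 11 tumours, with Krt5 at 83565 or more and Krt14 at 46807 or more.

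A gene was said to follow the ranking where the values of the 5 and the 5 tumours did not overlap and the mean log2(value + 1) differed by 1 or more. Of 12458 genes with a mean level above the filter, 218 followed upwards (1.75%) and 4 downwards (0.0321%). Without the condition on size, 271 were wholly higher (2.18%) and 30 wholly lower (0.241%). The median difference of all genes was 0.10, with 7568 genes of higher mean in the matrix-rich tumours and 4890 of lower mean. Followers were thus 98.2% upward, and 79.5% upward after quantile normalization, which gave 147 up and 38 down and moved the median of all genes to -0.05. Without BBN975 the upward count was 247, and 210 of the 218 were among them. Leaving out BBN965 raised it to 377 and leaving out BBN974 to 331, each time with 214 or 217 of the 218 kept. By its definition, no overlap is easier to meet with fewer tumours. Beyond that, the cause of these moves was not tested.

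The other collagens followed in part. Of 9 interstitial collagen genes with enough signal, beyond those that ranked the tumours, 5 followed upwards and 0 downwards, and all 9 had the higher mean in the matrix-rich tumours, with a median difference of 3.46 on the log2(value + 1) scale. Col5a1, a chain of the collagen V that nucleates fibrils, measured 3625, 2102, 926, 1255 and 499 in the matrix-rich tumours and 304, 215, 89.6, 23.1 and 17.2 in the matrix-poor ones. That is a log2 difference of 4.14, and the lowest matrix-rich tumour, BBN965, was above the highest matrix-poor tumour, BBN962. Col6a2, a chain of the beaded-filament collagen VI, went from 1568, 1335, 1372, 728 and 508 to 83.95, 86.4, 34.1, 4.41 and 10.8, a difference of 5.19. Col12a1, a fibril-associated collagen, measured 6527, 3013, 1414, 3639 and 1705 against 446, 350, 814, 232 and 35.3, so that BBN968 was the highest of its group in place of BBN962.

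Proteoglycans and elastic fibre genes held 9 followers among 18, with a median difference of 3.25 and a higher mean in all 18. Eln, the gene of elastin, had the largest rise of all named genes. Its values were 3383, 966, 380, 3596 and 1459 in the matrix-rich tumours and 22.8, 0, 25.3, 62.8 and 0 in the matrix-poor ones, a log2 difference of 7.45. Its order among the matrix-rich tumours was not that of the score: BBN972 and BBN964 were highest and BBN975 was lowest. Lum, the keratan sulphate proteoglycan lumican, went from 808, 738, 967.7, 260 and 106 to 10.4, 11.4, 32.8, 3.3 and 0. Prelp, a leucine-rich proteoglycan that binds basement membrane, differed by 6.09, Dpt (dermatopontin) by 6.52 and Mfap4, a microfibril-associated protein, by 6.50. Bgn, the gene of biglycan, was measured in every tumour: 12041, 6290, 4294, 5971 and 3095 against 813, 881, 334.6, 265 and 151.

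Enzymes that cross-link and process collagen followed in part, 5 of 17. Loxl1, a lysyl oxidase known for its role in elastic fibres, was the gene whose log2 values ran closest to the score over the 11 tumours (Pearson r = 0.98), at 861, 573, 331.5, 398 and 395 against 22.8, 48.9, 27.8, 11.02 and 0. Its relatives Loxl2 and Loxl3 followed with differences of 3.25 and 2.39, and Adamts2, the protease that removes the N-propeptide of procollagen, with 3.40. Lox itself overlapped, because BBN975 with 70.1 lay below BBN962 with 134. Among 18 matrix proteases and their inhibitors 3 followed: Mmp2, a gelatinase (log2 difference 3.74), Mmp23 (2.68) and Timp3, a matrix-bound protease inhibitor (3.08). Mmp14, the membrane protease that activates Mmp2, differed by 0.69 and overlapped, with 3099 to 8672 in the matrix-rich tumours and 2115 to 3705 in the matrix-poor ones. Postn, Sparcl1 and Wisp1 were the followers among 14 matricellular genes. Fn1, the gene of fibronectin, overlapped, since BBN976 with 6236 was above BBN975 with 5268 and BBN965 with 3276.

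The basement membrane, the sheet under epithelium and around vessels, held 1 follower among 12 genes, Col15a1. Its median difference of 1.78 was beside 1.46 for the collagen processing enzymes and 1.70 for the matrix proteases and inhibitors. Its collagen IV chains Col4a1 and Col4a2 overlapped because of BBN974, with 3392 and 2345, which exceeded BBN965 with 2515 and 1676. In the hemidesmosome list, which anchors basal epithelium, 1 of 9 followed, Col7a1, the anchoring-fibril collagen made largely by epithelium, at 3632, 2386, 1791, 5852 and 3804 against 1274, 1065, 1107, 886 and 639. The median difference of those 9 was 0.39.

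Fibroblast markers followed in 4 of 11 cases, Thy1, Cd248, Pdgfrb and Prrx1, with differences from 2.31 to 2.64. Pdgfra, the receptor typical of fibroblasts, differed by 3.72 but overlapped at its edge, with 42.8 in BBN965 and 47.9 in BBN963. Pi16, a marker of adventitial fibroblasts, measured 183, 121, 589, 301 and 41.7 against 47.7, 0, 0, 4.41 and 0. Of 9 mesenchymal regulators only Cdh11, a fibroblast cadherin, followed, and it was highest in BBN965 (1861). The transcription factors Zeb1 and Zeb2 differed by 2.98 and 2.57 with overlap, and Twist1 by -0.34. None of 15 TGF-beta ligands, receptors and targets followed, which is near the background where 1.75% of all genes follow upwards. Of the 15, 13 had the higher mean in the matrix-rich tumours. Their median difference was 0.85, within a range of -0.76 to 2.61. Tgfb1, the ligand best known for inducing collagen, had 1301 ± 624 in the matrix-rich and 1177 ± 385 in the matrix-poor tumours (SD, n = 5 each), a difference of 0.09. Among 14 stromal growth factor genes, Igf1 and the Wnt ligand Wnt2 followed. Wnt2 measured 305, 88.8, 63.3, 92.1 and 94.6 against 0, 2.08, 2.53, 0 and 0.

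Smooth muscle genes followed more completely than any other list of 5 or more genes: 12 of 15, beside 1.75% of all genes, with a median difference of 4.84. They included Myh11, Acta2, Actg2, Tagln, Cnn1, Des, Lmod1, Kcnmb1, Mylk, Cald1 and Pgm5. Myh11, the smooth muscle myosin heavy chain and the marker most restricted to that cell type, measured 3408, 3916, 60972, 3712 and 1720 in the matrix-rich tumours and 20.7, 29.1, 1168, 643 and 10.8 in the matrix-poor ones. BBN975 was 15.6 times the next tumour, and the matrix-poor tumours fell into a pair at 643 or more (BBN968, BBN976) and 3 with under 30. Acta2, the alpha actin of smooth muscle and of activated fibroblasts, measured 6030, 7182, 41786, 6858 and 2608 against 107, 288, 1163, 683 and 288. Des (desmin), an intermediate filament of muscle that fibroblasts generally lack, measured 4130, 3454, 21495, 5681 and 1620 against 35.2, 51.0, 1437, 500 and 20.8. BBN973, the middle tumour, was at 1431 for Des, just under BBN968.

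The summed level of the 16 smooth muscle genes was 37968, 37435, 275229, 41499 and 17080 in the matrix-rich tumours, 10654 in BBN973, and 2529, 2743, 12540, 6185 and 2585 in the matrix-poor ones. So the order by smooth muscle was not the order by the score: BBN975 led, and BBN968 exceeded BBN962, whose collagen was higher. Without BBN975 the list's median difference was 4.04. The samples could hold detrusor muscle, and its part in the collagen values was not tested.

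The CArG box is the element through which serum response factor acts on many contractile genes. It was searched on both strands, which read alike for this palindromic pattern, in the 250 bases before the start of each gene (RefSeq, GRCm38.p6). A box stood before 9 of the 152 upward followers that had a promoter entry (5.92%), beside 146 of 9894 genes of the comparison (1.48%) and 439 of 27025 in the whole table (1.62%). Of the 12 smooth muscle followers 8 had an entry and 0 of these held a perfect box; those without an entry included Actg2, Myh11 and Tagln. The 9 genes, picked out after their values were seen, were Myl9, Fhl1, Fermt2, Lmcd1, Eml1, Myom1, Asb2, Filip1 and Ldb3. Sequences of the 4 with the highest mean value in the matrix-rich tumours are shown 5′ to 3′ in lower case with the box in capitals, so that its distance from the start can be seen. They lie at chr2:156775214-156775463 (plus strand, Myl9), chrX:56779433-56779682 (plus, Fhl1), chr14:45530066-45530315 (minus, Fermt2) and chr6:112273508-112273757 (plus, Lmcd1). A match is a run of letters and no evidence of binding.
Myl9: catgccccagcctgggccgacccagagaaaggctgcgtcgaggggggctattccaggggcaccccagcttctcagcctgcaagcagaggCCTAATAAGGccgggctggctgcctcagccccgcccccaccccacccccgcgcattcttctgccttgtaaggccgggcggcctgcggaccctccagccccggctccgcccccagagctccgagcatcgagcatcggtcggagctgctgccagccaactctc
Fhl1: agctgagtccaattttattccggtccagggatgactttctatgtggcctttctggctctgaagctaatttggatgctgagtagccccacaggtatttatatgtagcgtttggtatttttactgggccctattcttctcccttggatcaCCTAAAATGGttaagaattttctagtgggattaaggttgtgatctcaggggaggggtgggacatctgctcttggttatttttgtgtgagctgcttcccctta
Fermt2: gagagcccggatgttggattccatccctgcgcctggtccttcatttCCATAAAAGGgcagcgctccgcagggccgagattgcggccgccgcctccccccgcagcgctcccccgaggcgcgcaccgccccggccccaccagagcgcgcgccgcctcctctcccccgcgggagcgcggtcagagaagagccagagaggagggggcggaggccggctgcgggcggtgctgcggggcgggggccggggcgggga
Lmcd1: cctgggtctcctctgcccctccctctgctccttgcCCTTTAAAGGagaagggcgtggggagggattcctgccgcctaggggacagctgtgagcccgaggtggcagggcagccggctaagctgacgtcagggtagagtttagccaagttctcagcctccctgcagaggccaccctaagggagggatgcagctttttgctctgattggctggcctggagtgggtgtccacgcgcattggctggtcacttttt

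The first base of the box lay at -161 in Myl9, -102 in Fhl1, -204 in Fermt2 and -215 in Lmcd1, counted from the start. Myl9, the regulatory light chain of smooth muscle myosin, measured 1617, 2000, 15766, 2002 and 771 in the matrix-rich tumours and 80.8, 38.5, 506, 214 and 37.97 in the matrix-poor ones. Fhl1, a LIM-domain protein of muscle, measured 874, 591, 3977, 871 and 443 against 20.7, 12.5, 212, 90.3 and 6.33. Both repeated the pattern of Myh11, with BBN975 far above the rest and BBN968 and BBN976 above the other matrix-poor tumours. Fermt2 (kindlin-2, an integrin activator that is not restricted to muscle) measured 570, 991, 1462, 255 and 221 against 86.03, 42.7, 85.9, 61.7 and 204, so BBN974 came within reach of BBN965.

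Most upward followers, 161 of 218, were in none of the lists. The 12 largest rises included 3 of these. Serpina3n, a secreted protease inhibitor, measured 1353, 1376, 3865, 1160 and 589 against 34.2, 2.08, 29, 48.5 and 0, a difference of 6.97 with no overlap. Cilp, a protein of the cartilage matrix, was lowest among the matrix-rich tumours in BBN975, at 55.3, and measured 0, 32.3, 0, 4.41 and 0 in the matrix-poor ones, a difference of 5.85. Pdlim3, a protein of muscle Z-discs, measured 406, 472, 3354, 440 and 338 against 0, 0, 96, 57.3 and 0, and like Myh11 it was highest in BBN975 and, among the matrix-poor tumours, in BBN968.

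Pericytes wrap capillaries and share genes with smooth muscle. In their list 3 of 8 followed, Cspg4, Abcc9 and Heyl, with a median difference of 2.21. Rgs5 overlapped because BBN963, a matrix-poor tumour, had the highest value of all at 1575. Of the genes of the endothelium that pericytes cover 0 of 16 followed, which is near the background where 1.75% of all genes follow upwards. All 16 had a higher mean in the matrix-rich tumours (median difference 0.87). BBN974, the tumour with the least collagen, had the highest value of all 11 for Cdh5, the cadherin of endothelial junctions (457, 307, 524, 463 and 189 against 198, 36.4, 121, 111 and 1316), and for Pecam1, a pan-endothelial adhesion molecule (559, 456, 1004, 568.5 and 207 against 287, 229, 182, 124 and 1420). Without it the median difference of the endothelial list was 1.33. Its pericyte list mean, 6.01, was also the highest of the 5 matrix-poor tumours, and so was its Abcc9 at 61.5, both below every matrix-rich tumour (6.71 or more for the list, 153 or more for Abcc9). Myh11 was 10.8 there.

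**Figure D2:**
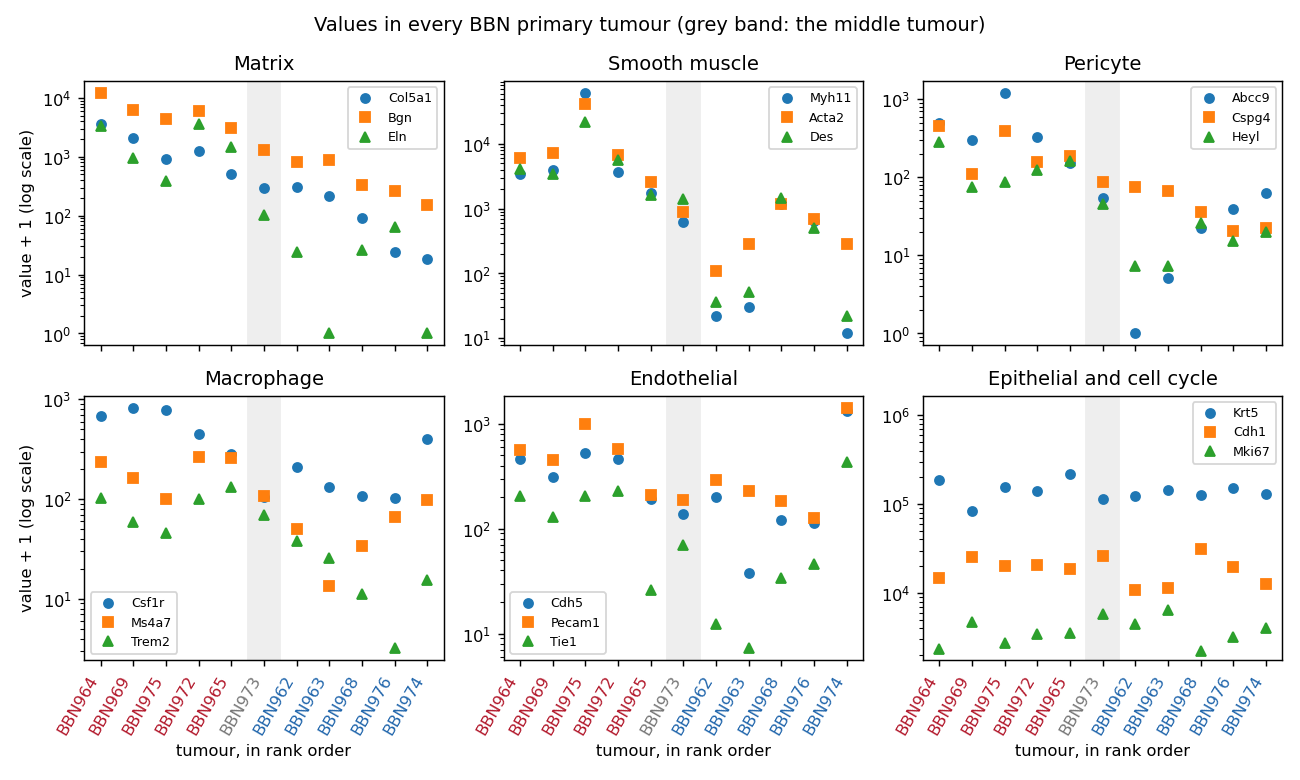
Values (plus 1, log scale) of 3 genes for each of 6 cell types or processes in the 11 BBN primary tumours in rank order, with the middle tumour shaded. Col5a1 and Bgn fall broadly along the ranking, and Eln is higher in the matrix-rich tumours but not in the order of the score. Myh11, Acta2 and Des peak in BBN975 and rise again in BBN968, and Cdh5 and Pecam1 are highest in BBN974.

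Macrophage genes followed in 6 of 15 cases by smaller amounts than the matrix genes, with a list median of 1.39. The followers were Emr1 (F4/80), the 3 chains of the complement factor C1q (C1qa, C1qb and C1qc, differences of 1.36 to 1.49), Ms4a7 and Trem2. Trem2, a lipid receptor of tissue macrophages, measured 100.8, 58.1, 44.5, 100 and 131 against 37.3, 24.98, 10.1, 2.203 and 14.5. Csf1r, the receptor for the macrophage growth factor CSF1, overlapped through BBN974 (404) and BBN965 (286). Complement genes of the stroma had a median difference of 3.02, and 1 of 8 followed, Serping1, the C1 inhibitor, at 559 to 2499 in the matrix-rich and 30.8 to 168 in the matrix-poor tumours. Chemokines held 1 follower of 12, Cxcl14, which epithelium and fibroblasts secrete (log2 difference 3.14).

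No gene of the neutrophil (7), MHC class II (8), T cell (5), dendritic cell (2), B and plasma cell (2), mast cell (2) or cytotoxic lymphocyte (1) lists followed. Where 1.75% of all genes follow upwards, 0 is near the background for lists this small. The neutrophil list had a median difference of 1.33, and 5 of its 7 genes had the higher mean in the matrix-rich tumours. Cd74, the invariant chain of MHC class II, measured 6169, 5886, 6989, 4446 and 2503 against 1990, 1690, 1736, 2074 and 3398, and overlapped through BBN974 and BBN965 alone. The 8 class II genes had a median difference of 1.05. T cell genes were low in both groups, with summed levels over 16 genes of 135 to 505 in the matrix-rich and 203 to 550 in the matrix-poor tumours, the highest in BBN974. Cd247, a gene of that list, was 79.8 to 134 in every tumour and 80.3 in the BBN963 culture, which is without host tissue. It thus made much of the lowest sums.

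Other tissues that a bladder sample could hold were looked at through their markers. Sums of the Schwann cell list were 1170 to 4131 and 707 to 5607, led by Mbp and Ngfr, which other cells express as well. BBN975 was the only tumour with all 10 of those genes above 0. The skeletal muscle sum was 3128 in BBN975 and 31.2 to 320 in the other matrix-rich, matrix-poor and middle tumours, with Myh4 at 0 in all 11, and the plasma cell gene Igj was 6044 in BBN975 and at most 453 elsewhere. The mesothelial sum ranged from 74.7 to 2038 in the matrix-rich and from 63.5 to 949 in the matrix-poor tumours, and the adipocyte sum from 201 to 1405 and from 100.2 to 1641. Of the 8 adipocyte genes, however, 6 were at 0 in all 11 tumours. Fabp4 alone was 1291 in BBN969 and 1628 in BBN968, which made most of the highest sums. It was 6437 to 32420 in the UPPL primary tumours, so the sum is no clear sign of fat. The part of these tissues in the genes that follow was not tested.

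**Figure D3:**
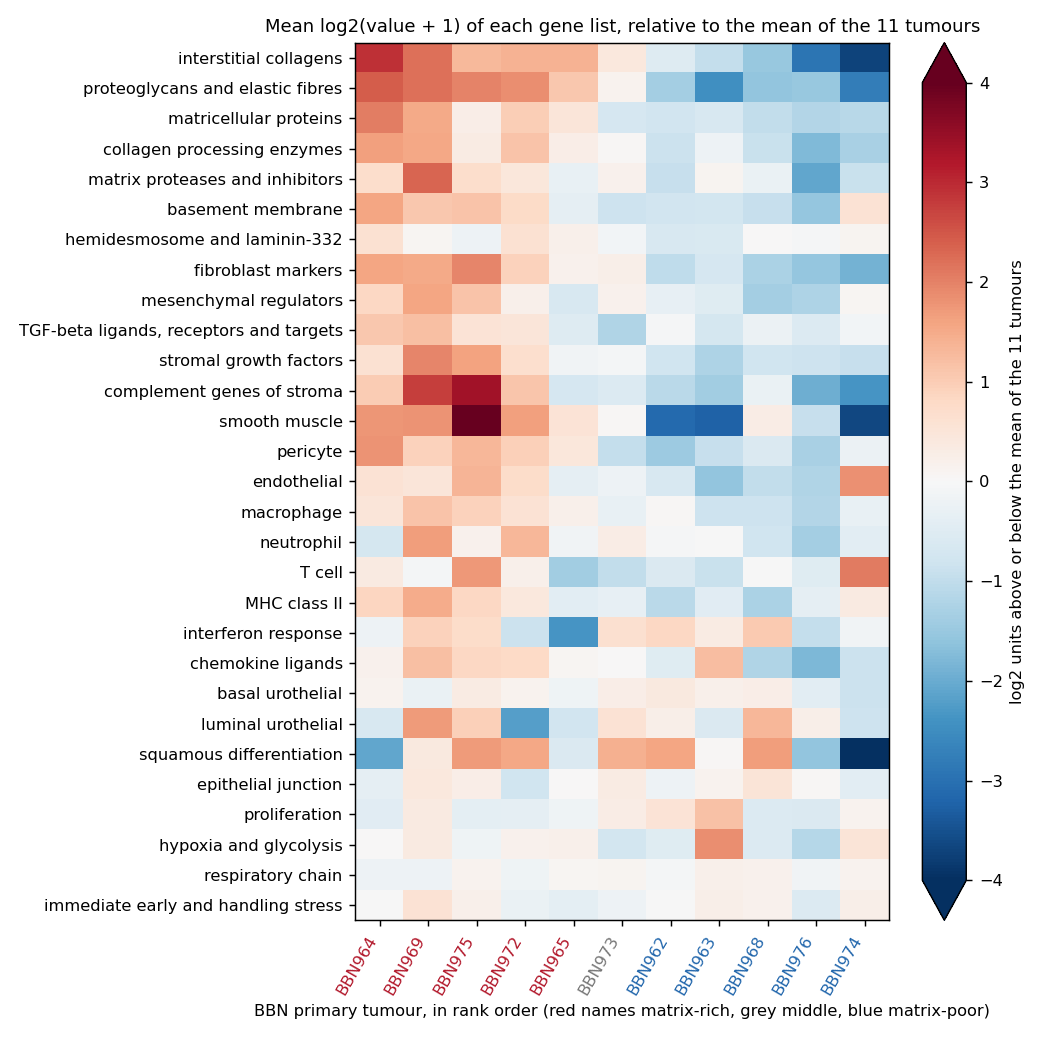
Mean log2(value + 1) of each gene list in each BBN primary tumour, relative to its mean over the 11 tumours (colour), with tumours in rank order from left to right. Collagens and proteoglycans grade from red to blue along the ranking, smooth muscle peaks in BBN975, and the endothelial and T cell lists are high in BBN974.

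Epithelial genes were looked at in 4 lists. No gene followed in the basal (15), luminal (19), squamous (20) or junction (20) lists, with median differences of 0.13, -0.30, 0.53 and -0.16. With 1.75% of all genes following upwards, a count of 0 in lists of this size is near the background. The squamous median was -0.01 without BBN974 and 1.79 without the libraries whose commonest low value was worth 8 reads or more, and the luminal one -0.63 without BBN975, -0.58 without BBN974 and 0.15 without those libraries. Krt5, the basal keratin, measured 185816, 83565, 155024, 139370 and 219550 against 123367, 143287, 126206, 150498 and 131664. Cdh1, the cadherin of epithelial junctions, measured 14780, 25569, 20248, 20655 and 18553 against 10821, 11255, 31426, 19695 and 12756. Luminal genes differed strongly between tumours but not along the ranking: Upk1b, a uroplakin, was 4029 in BBN969 and 0 in BBN965, both matrix-rich. The squamous list was lowest in BBN974 and next lowest in BBN964, the 2 ends of the ranking. Krt1, a keratin of cornified epithelium, was 301 in BBN964, 29.8 in BBN974 and 47671 in BBN975.

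All 24 proliferation genes had a lower mean in the matrix-rich tumours, and none followed. The median difference was -0.38, and -0.45 after quantile normalization. Mki67, a marker of cycling cells, measured 2309, 4726, 2752, 3488 and 3577 against 4435, 6446, 2198, 3223 and 3995, so the groups overlapped. Interferon response genes had a median difference of -0.68 with 19 of 25 lower and none following, and the sign turned to 0.35 without BBN965, BBN962 and BBN968. BBN965 was the tumour with the lowest list mean: Mx1, an interferon-induced antiviral gene, was 0 there and 7.87 to 235 in the other matrix-rich tumours, against 18.99 to 747 in the matrix-poor ones. Hypoxia and glycolysis (16 genes, 0.02), respiratory chain (15 genes, -0.14) and immediate early genes (14 genes, -0.07) held no follower. With 1.75% of all genes following upwards and 0.0321% downwards, 0 followers in each list of this paragraph is near the background.

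**Figure D4:**
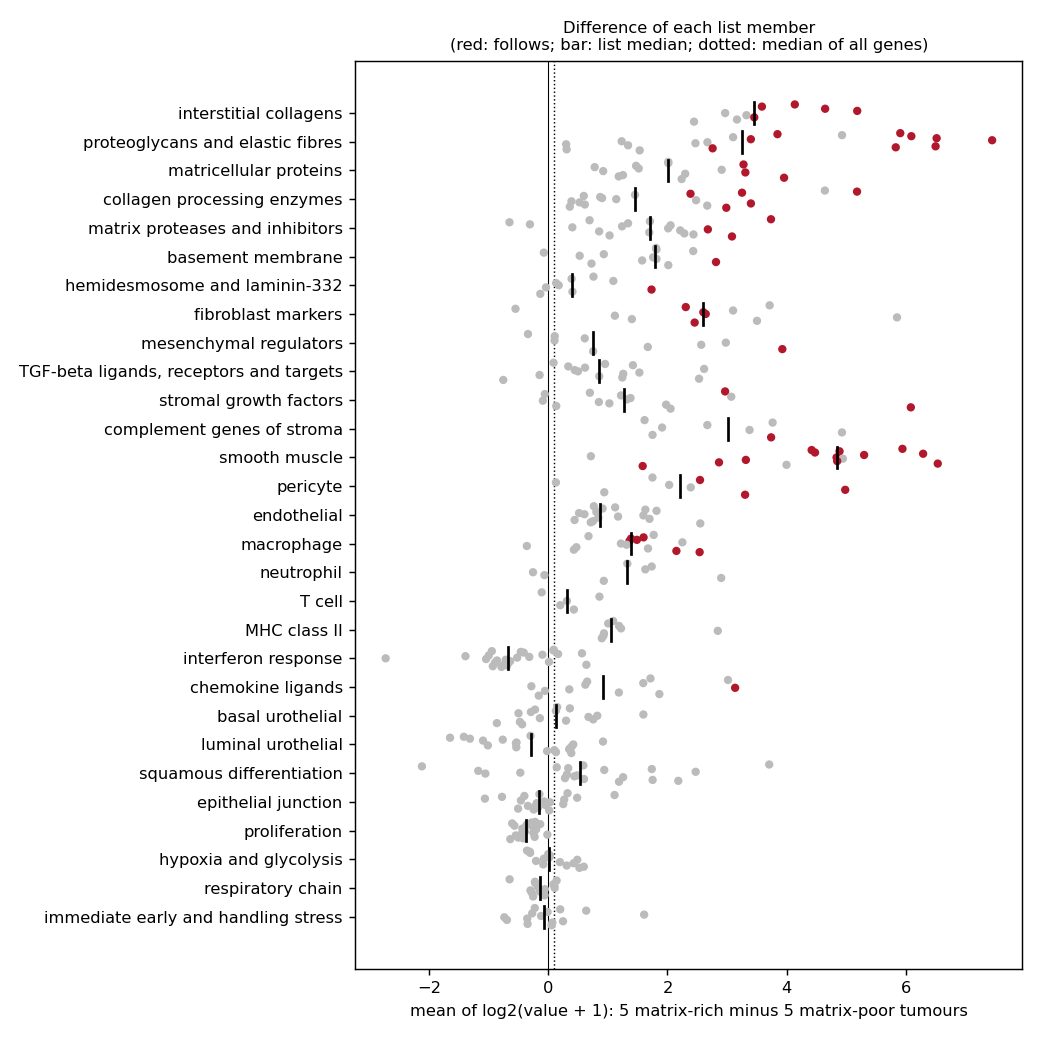
Difference in mean log2(value + 1) between the 5 matrix-rich and the 5 matrix-poor tumours for each gene of each list (points, red where the gene follows), with list medians as bars. Smooth muscle has the list median farthest to the right, 4.84, all 24 proliferation genes lie below 0, and the squamous genes spread from -2.12 to 3.71.

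The 4 genes that followed downwards were Alkbh7, Zfp119b, Mt2 and Mettl7a1. Mt2, a metallothionein that binds zinc and copper, measured 2203, 2247, 2426, 1374 and 1530 in the matrix-rich tumours and 4403, 5568, 3110, 4566 and 4223 in the matrix-poor ones, a log2 difference of -1.17. Its highest matrix-rich value, in BBN975, lay below the lowest matrix-poor value, in BBN968. Mettl7a1, a methyltransferase-like protein, measured 455, 244, 540, 207 and 383 against 698, 723, 787, 920 and 621. Alkbh7, a mitochondrial dioxygenase of the AlkB family, differed by -1.44 and Zfp119b, a zinc finger protein, by -1.31. The downward count was 3 to 18 when 1 tumour was left out, so these genes are named only as what met the rule here.

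Likeness to the score was measured by Pearson's r of log2(value + 1) over the 11 tumours, as a description with no p, since all genes share the libraries. Of 10496 genes with a mean of 100 or more, 26 reached 0.9 and 1 was at or under -0.9. The 10 most alike were Loxl1, Ccdc80, Lum, Col5a1, Bgn, Cxcl14, Col12a1, Col6a1, Col6a2 and Col5a2. Ccdc80, a secreted matrix-binding protein, measured 1767, 1628, 1081, 828 and 552 against 32.1, 68.7, 54.3, 41.9 and 3.62. Smooth muscle genes were less like it, with r of 0.77 for Myh11, 0.76 for Acta2 and 0.80 for Des.

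The culture of the BBN963 line, 1 library, gave a reference without host tissue. Its matrix score was 1.59. Of the 218 upward followers 82 were at 0 in it (37.6%), beside 551 of the 12458 genes of the comparison (4.42%), and 128 were under 10 (58.7%, beside 8.44%). Bgn was 2.43, Lum 0, Cnn1 0 and Trem2 0. Exceptions among the named upward followers included Col12a1 at 1910, Col7a1 at 585, Eml1 at 363 and Fermt2 at 168. The value of Eml1 was above its mean of 306 in the matrix-rich tumours. With 1 library there is no replicate check.

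Whether the same genes move with the matrix score was tested in tumours that the ranking had not used. In the 9 UPPL primary tumours the score ranged from 5.03 to 10.45. There limma called 0 of 11970 genes at an adjusted p of 0.05 (0%), with 689 positive and 110 negative slopes at an unadjusted p under 0.05 and a smallest adjusted p of 0.278, and edgeR on the recovered reads called 0 as well. Of the 151 upward followers tested 129 had a positive slope (85.4%), beside 66.3% of all genes of the BBN comparison, and 35 were positive at an unadjusted p under 0.05 (23.2%, beside 5.70%). Des had the steepest slope of the named genes, 1.98 log2 units per unit of score (adjusted p = 0.278). These shares are descriptions, since genes of a stroma rise and fall together and are not independent.

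The 19 tumours outside the ranking, which include those 9, were then fitted together with the tumour group as a factor, so that only differences within a group count. Tumours grown from 1 line entered as separate samples, although they are not independent lines. The scores were 13.57 to 13.60 in the BBN963-derived tumours, 11.31 to 14.33 in the MB49-derived and 13.36 to 15.78 in the UPPL1541-derived ones. limma called 40 of 12474 genes as rising with the score (0.321%) and 0 as falling (0%, with 278 at an unadjusted p under 0.05), and edgeR on the recovered reads called 35 and 0. Among the upward followers 199 were tested and 17 called (8.54%), and 183 had a positive slope (92.0%, beside 61.5% of all genes tested). Of the 37 called genes with a value in the BBN comparison, 35 had the higher mean in the matrix-rich tumours and 29 by 1 or more.

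Of the 40 called genes 12 were in 1 of the 6 matrix lists, 5 in the smooth muscle list and 21 in no list. Rcn3, in no list, a calcium-binding protein of the endoplasmic reticulum needed for collagen production, had the smallest adjusted p, 0.00069, with a slope of 1.19 ± 0.14 (SE), and measured 595, 764, 709, 243 and 229 against 48.7, 14.6, 6.31, 2.203 and 18.1 in the BBN tumours. Mmp2 had 1.10 ± 0.15 (adjusted p = 0.0037) and Bgn 0.63 ± 0.09 (adjusted p = 0.0045). Mxra8, in no list, a membrane protein of mesenchymal cells and the entry receptor of several arthritogenic alphaviruses, had 1.12 ± 0.16 (adjusted p = 0.0037). Rcn3, Mmp2 and Bgn were called under every alternative run, and Mxra8 was not with array weights (adjusted p = 0.061) or without the UPPL primary tumours (adjusted p = 0.33). Of the lists, proteoglycans and elastic fibres had 6 of 21 called, smooth muscle 5 of 14, matrix proteases 4 of 18 and interstitial collagens 2 of 8. Eln was called with 0.95 ± 0.17 (adjusted p = 0.013) and lost the call under 5 of 32 alternatives, among them without UPPL1612 (adjusted p = 0.093). Without the UPPL primary tumours the slope of Eln was 0.58 (adjusted p = 0.47). Lum was called with 1.18 ± 0.25 (adjusted p = 0.047), and lost the call under 27 of 32 alternatives, with adjusted p = 0.050 after quantile normalization and 0.20 without the UPPL1541-derived tumours.

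The smooth muscle genes called in the 19 tumours were Des (1.68 ± 0.28, adjusted p = 0.0077), Actg2 (1.66 ± 0.28, adjusted p = 0.0099), Tagln (0.95 ± 0.17, adjusted p = 0.013), Acta2 (0.70 ± 0.13, adjusted p = 0.023) and Cald1 (0.52 ± 0.10, adjusted p = 0.027). Myl9, with the box printed above, was called too (0.97 ± 0.19, adjusted p = 0.029). Myh11, Cnn1 and Pgm5 had slopes of 1.36, 1.33 and 1.36 that did not pass in limma (adjusted p = 0.12, 0.24 and 0.15), while edgeR called Myh11 (adjusted p = 0.044) and Pgm5 (adjusted p = 0.023). Without UPPL1612 alone none of these 6 calls held: adjusted p = 0.057 for Des, 0.076 for Actg2, 0.053 for Tagln, 0.10 for Acta2, 0.12 for Cald1 and 0.13 for Myl9. Des also lost its call with a pseudocount of 10 (adjusted p = 0.068), with array weights (adjusted p = 0.15) and without the UPPL primary tumours, where its slope was 0.71 (adjusted p = 0.76). Cald1 had a slope of 0.16 without the UPPL primary tumours (adjusted p = 0.84), while the calls of Actg2, Tagln, Acta2 and Myl9 held there. Of the alternatives run, 4 of 32 ended the call of Des, 4 of 32 that of Actg2, 4 of 33 that of Tagln, 7 of 33 that of Acta2, 9 of 33 that of Cald1 and 11 of 33 that of Myl9.

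Some genes of the BBN description were not called in the 19 tumours. Ccdc80, second in likeness in the BBN tumours, had a slope of 0.13 ± 0.13 (adjusted p = 0.78), and 0.85 without the UPPL primary tumours (adjusted p = 0.000879). Mt2 had -0.04 ± 0.19 (adjusted p = 0.97) and Mettl7a1 -0.12 ± 0.10 (adjusted p = 0.71). In the other direction limma called Mmp14 in the 19 tumours (0.33 ± 0.05, adjusted p = 0.0045), with a BBN difference of 0.69 and overlap. Mmp14 kept its call under 31 of 33 alternatives. Krt17, a keratin of basal and wounded epithelium, was called too (1.22 ± 0.25, adjusted p = 0.038) with a BBN difference of 0.67 and overlap. Cables1, a cell-cycle adaptor, rose with the score in the 19 tumours (0.98 ± 0.17, adjusted p = 0.013). Its mean was lower in the matrix-rich BBN tumours by 1.13 log2 units. Krt17 lost its call under 22 of 33 alternatives and Cables1 under 7 of 32, both of them in edgeR (adjusted p = 0.11 and 0.15). Without UPPL1612 Krt17 was at 0.14, and without UPPL1595 Cables1 was at 0.056. Without the UPPL primary tumours the slope was 0.26 for Krt17 (adjusted p = 0.62) and 0.24 for Cables1 (adjusted p = 0.84). The interferon response list, with a median difference of -0.68 in the BBN tumours, had a positive median slope in the 19 tumours. That slope was 0.39, beside 0.03 for all genes tested, and 0 of the 25 genes were called. In the UPPL primary tumours alone the list's median slope was 0.51, beside 0.05 for all genes. The count of 40 moved from 20 without UPPL1612 to 75 without UPPL1694, with 25 without UPPL1695 and 26 without the third MB49-derived or the second UPPL1541-derived tumour. It was 118 without the libraries whose commonest low value was worth 8 reads or more.

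**Figure D5:**
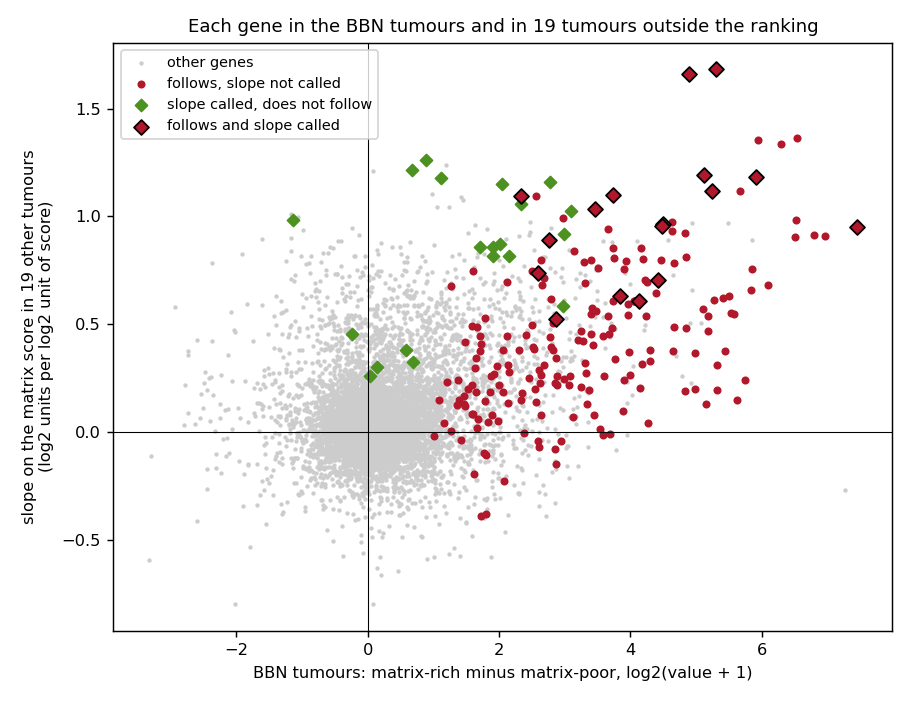
Each gene's difference between matrix-rich and matrix-poor BBN primary tumours (horizontal, log2 units) against its slope on the matrix score in 19 tumours outside the ranking (vertical). Red marks genes that follow in the BBN tumours, diamonds those called in the 19: 17 are both, and Des and Actg2 lie highest.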

How the data were processed

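Per the labels, RNA of the 36 mouse samples came from RNeasy columns and went into stranded mRNA libraries (TruSeq). The deposited values are a per-gene signal: RSEM estimates scaled by the authors so that the 75th percentile of the values above 0 is 1000 in every sample, as tested on the values. The submitters' processing notes list RSEM, Picard 1.64, SAMtools and the build mm9 but not what each was used for; settings are not given in the sources used here. Such values are not per gene length, so levels were compared between samples and never between genes. Low values came out as whole multiples of 1 read for 96.0 to 98.9% of genes (within 0.1 read), which gave the depth.

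Here the matrix score, the groups and every difference were computed on log2(value + 1) in R 4.3.3. A gene was kept where its mean over the 11 tumours reached log2(10 + 1). Log2 differences of low genes depend on the pseudocount, here 1, and those of Wnt2 and Mfap4 were smaller with one of 10. Slopes on the score were tested with limma 3.58.1 (variance trend, Benjamini-Hochberg over all genes, 0.05), on the samples that the ranking did not use. edgeR 4.0.16 on the recovered reads was an alternative, added after the data were seen, as were leaving out libraries with coarse low values and the rule of no overlap alone. The fits were tested on simulated data.

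The members and the gene lists were chosen with earlier results of these data known. Named genes were the 12 largest rises and falls among followers with a mean of 100 or more, the first 2 and up to 3 most different genes of each list, the 10 most like the score, and the 5 smallest p-values in each direction of each fit; the genes with a CArG box and single exceptions were picked after their values were seen. Promoters are from RefSeq, GRCm38.p6, matched by gene ID, and no coordinates of the files' build are given. Some items of the genotypes and gene lists are not reported here.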

Additional observations from a re-analysis of the deposited data

Results flagged for a closer look

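Within groups of 5, the tumour farthest out was compared with its nearest neighbour for the genes of the largest rises, falls and likeness (Dixon's ratio of that gap to the group's range). This flagged 6 of 50 groups. Chance alone flags about 1 in 20 independent groups. That rate does not apply here, since the genes were picked from these same values and many of them move together. Values in BBN975 stood far above the other matrix-rich tumours for Myh11 (60972), Pdlim3 (3354) and Pgm5 (8527), 3 genes of muscle that move together. Wnt2 was 305 in BBN964, with 94.6 as the next value. Ccdc80, picked for its likeness to the score, was lowest in BBN974 (3.62), which also had the lowest score. Zfp119b, a gene that fell, was lowest in BBN965 (18.02). Under the alternatives run, each difference kept its sign: Myh11 ranged from 5.08 to 6.92 and Zfp119b from -1.71 to -0.94 on the log2 scale.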

How the results depend on the processing

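No paired analysis was possible because the groups compared share no replicate numbers: each primary tumour carries a number of its own. The names of the lines BBN963 and UPPL1541 do match those of primary tumours, BBN963 being a ranked matrix-poor one. Tumours grown from these lines may thus not be independent of those primary tumours. The count of genes that follow upwards, 218, was 87 with the stricter filter (mean of 100), which tests fewer genes, 465 with 4 tumours against 4, 119 with the middle tumour joined to the highest, 636 without the libraries whose commonest low value was worth 8 reads or more (4 against 3 tumours), and 231 to 377 with 1 tumour left out. The downward count, 4, was 38 after quantile normalization, 10 with median-of-ratios scaling, 17 with 4 against 4, 41 without those libraries, 30 with no overlap alone, and 3 to 18 with 1 tumour left out. By its definition, no overlap is easier to meet with fewer tumours and harder with more. In the UPPL primary tumours the 0 calls became 1 upward with no variance trend, 3 with the score computed without Dcn, 6 upward and 1 downward with the share of genes at 0 as a covariate, 1 and 1 without the libraries with coarse low values, and 0 to 1 with 1 tumour left out. In the 19 tumours the 40 upward calls became 26 with a pseudocount of 10, 18 with the stricter filter, 23 after quantile normalization, 7 with array weights, 22, 10 and 77 without the MB49-derived, UPPL1541-derived and UPPL primary groups, 118 without the coarse libraries, and 20 to 75 with 1 tumour left out (20 without UPPL1612, 25 without UPPL1695, 26 without MB49-derived 3 or UPPL1541-derived 2, 75 without UPPL1694). The 0 downward calls became 2 without the UPPL primary group, 12 without the coarse libraries, and 0 to 3 with 1 tumour left out. Beyond the effect of group size on overlap, the cause of these moves was not tested. Over all settings the sign stayed in 3962 of 4077 values of single BBN genes, 642 of 667 list medians and 8810 of 9263 slopes of single genes. Of the slopes 110 lost and 62 gained a call, and 0 called values changed sign. Depth was alike between the groups, so it limits mainly the genes at a few reads, whose differences depend on the pseudocount: Wnt2 fell from 6.09 to 3.46 and Mfap4 from 6.50 to 4.25 with a pseudocount of 10.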

Other observations

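BBN963, a matrix-poor tumour, stood highest of the 11 in the hypoxia and glycolysis list (mean log2(value + 1) of 12.59, with 9.58 to 11.26 in the other 10) and in the proliferation list (10.89, with 9.13 to 10.26). Vegfa, the main growth factor of vessels, was 6751 there and at most 3943 elsewhere, and Ankrd37, a gene induced by low oxygen, was 1162 and at most 444 elsewhere. Its endothelial list mean was the lowest of the 11, 4.78. These are values of 1 library. BBN969, a matrix-rich tumour, had Igf2, a fetal growth factor, at 7977, with 1624 as the next highest value, and Krt18, a keratin of luminal urothelium, at 12868, with 6051 as the next highest.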
